A study of Mus musculus with 6 samples.

Results

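The genes examined here are the m6A writer and eraser genes: 7 writers (*Mettl3*, *Mettl14*, *Wtap*, *Zc3h13*, *Rbm15*, *Rbm15b* and *Cbll1*) and 2 erasers (*Alkbh5* and *Fto*), 9 of the 22241 protein-coding genes in the mouse annotation used. They were chosen for the function of their proteins, with earlier results of these data known. Their data are the YTHDC1 LACE-seq peaks that lie wholly inside their annotated intervals on mm9. LACE-seq crosslinks a protein to RNA with UV light, pulls it down with an antibody, and reads where reverse transcription stops at the crosslink. All 6 libraries were wild type and were made with the same YTHDC1 antibody. In 4 of them the cells were ASC-48 hr, satellite cells of mouse muscle cultured for 48 hr, as biological replicates B1 and B2 with technical replicates T1 and T2 of each. The study sorted its satellite cells from muscle by a GFP or EYFP reporter that the mice carried. Which mouse line gave the ASC-48 hr libraries is not given in the sources used here. The other 2 were of C2C12, an established line of mouse myoblasts grown in culture, and were made from more cells. The labels number the C2C12 libraries as biological replicates while the study's text calls them technical, so each C2C12 mean ± SD (n = 2) below measures the spread between 2 libraries, which may be technical. The growth conditions in the labels describe C2C12, and whether each biological replicate of ASC-48 hr came from 1 animal or from pooled animals is not given in the sources used here. No control immunoprecipitation and no measure of RNA abundance was analysed here, so a gene with few peaks and a gene with little RNA cannot be told apart.

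N6-methyladenosine (m6A) is a methyl mark placed on adenosines of messenger RNA, mostly within the sequence called DRACH. METTL3 carries the catalytic site and METTL14 holds the RNA in the core heterodimer. WTAP, ZC3H13, RBM15, RBM15B and CBLL1 (also called HAKAI) belong to the associated complex that brings the core to its nuclear targets. ALKBH5 and FTO remove the methyl group. YTHDC1 is the nuclear reader of the mark and is known for acting on splicing and on the export of mRNA. The peaks below are those called for the reader in genes of the machinery that writes and erases its own mark.

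LACE-seq reads were taken to run opposite to the RNA. This rule was measured in C2C12 and then applied to the ASC-48 hr peaks too. Among C2C12 peaks found in both replicates and lying in protein-coding genes of 1 strand, 18491 of 20097 (92%, exact 95% interval 91.6 to 92.4) were opposite to the gene, and peaks in that orientation are called peaks on the strand of the RNA. A peak was set apart as a G-run peak where 10 or more consecutive G stood on the reads' strand inside it or up to 20 nt away. A shared C2C12 peak is a replicate 1 peak that overlapped a replicate 2 peak on the same strand by at least 1 nt.

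The sequences that carry the strongest signal are shown first: up to 3 shared C2C12 peaks with the highest mean reads in each gene, in that order. Each is a 20-nt bin, for a wider peak the one with the lowest coordinates, with 5 nt on either side, 5′ to 3′ on the strand of the RNA, read from mm9. Capitals mark a DRACH match, that is A, G or T, then A or G, then AC, then A, C or T.

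*Rbm15b*, coding exon, chr9:106787016-106787045, minus strand: ccttctggcagcaagcTGACCcagctaaag
*Rbm15b*, coding exon, chr9:106788016-106788045, minus strand: gggtggtctcGGACCTAACAcctcgctggc
*Rbm15b*, coding exon, chr9:106787376-106787405, minus strand: agccgcaaggaGAACCactccagtgaaggg
*Rbm15*, coding exon, chr3:107134576-107134605, minus strand: tgcctcttgctgccctggcacgagaatttg
*Rbm15*, coding exon, chr3:107135016-107135045, minus strand: cccgccaccattgccccgagagctggaaag
*Rbm15*, coding exon, chr3:107134456-107134485, minus strand: cctGGACCcatatgcgtggattcccacttg
*Alkbh5*, 3′UTR, chr11:60369736-60369765, plus strand: ccattcttgtactcagcagctaggctcttg
*Alkbh5*, 3′UTR, chr11:60368556-60368585, plus strand: aatggttcTGACCtcttttgctaagagcat
*Alkbh5*, intron, chr11:60351216-60351245, plus strand: tggaagctgaggcgtctgcgggcatccgca
*Fto*, intron, chr8:93859356-93859385, plus strand: tcctgttccaggccatctgacgccctttct
*Fto*, intron, chr8:94051336-94051365, plus strand: tctttgccaagttatcagctgatGGACAtc
*Fto*, intron, chr8:94093116-94093145, plus strand: atagagtatttgtattcttgaTGACCtgcc
*Wtap*, intron, chr17:13174496-13174525, minus strand: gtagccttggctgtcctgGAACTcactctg
*Wtap*, 3′UTR, chr17:13159956-13159985, minus strand: ttcctcacgctgttgttactcatgcaccat

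The ASC-48 hr peaks that recurred in 2 technical replicates, or that coincided with a shared C2C12 peak, are shown for comparison.

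*Rbm15b*, coding exon, chr9:106788396-106788425, minus strand: gtgGGACTgtctcgagagcgagccctggac
*Wtap*, 5′UTR, chr17:13184976-13185005, minus strand: ccggcggcggcgcggcctcggcctgtgtga
*Fto*, intron, chr8:94174356-94174385, plus strand: gtgtacacatggcTGACAcagccatgcctc

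The first of these holds GGACT, the form of DRACH best known as a methylation site, and it lies in the only shared C2C12 peak of the 9 genes that was also a peak in an ASC-48 hr library.

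In C2C12, 5 of the 9 genes held at least 1 shared RNA-strand peak: *Wtap*, *Rbm15*, *Rbm15b*, *Alkbh5* and *Fto*. Across all 22241 protein-coding genes the figure was 21.4%, a background that counts genes whether or not the cells transcribe them. The 9 genes together held 93 such peaks in replicate 1 and 99 in replicate 2, of which 40 were shared. By replicate, 5 and 6 of the genes held a peak, against 32.8% and 36.7% of protein-coding genes. Both erasers were among the genes with shared peaks, and the catalytic pair was not. *Mettl3*, *Mettl14* and *Cbll1* held 0 peaks on the strand of the RNA in each of the 6 libraries. Only bins above the caller's threshold are listed, so a 0 says that no bin reached it. The lowest listed value was 6 reads per bin in C2C12, 4 in ASC-48 hr B2 T2 and 5 in each other ASC-48 hr library.

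**Figure D1:**
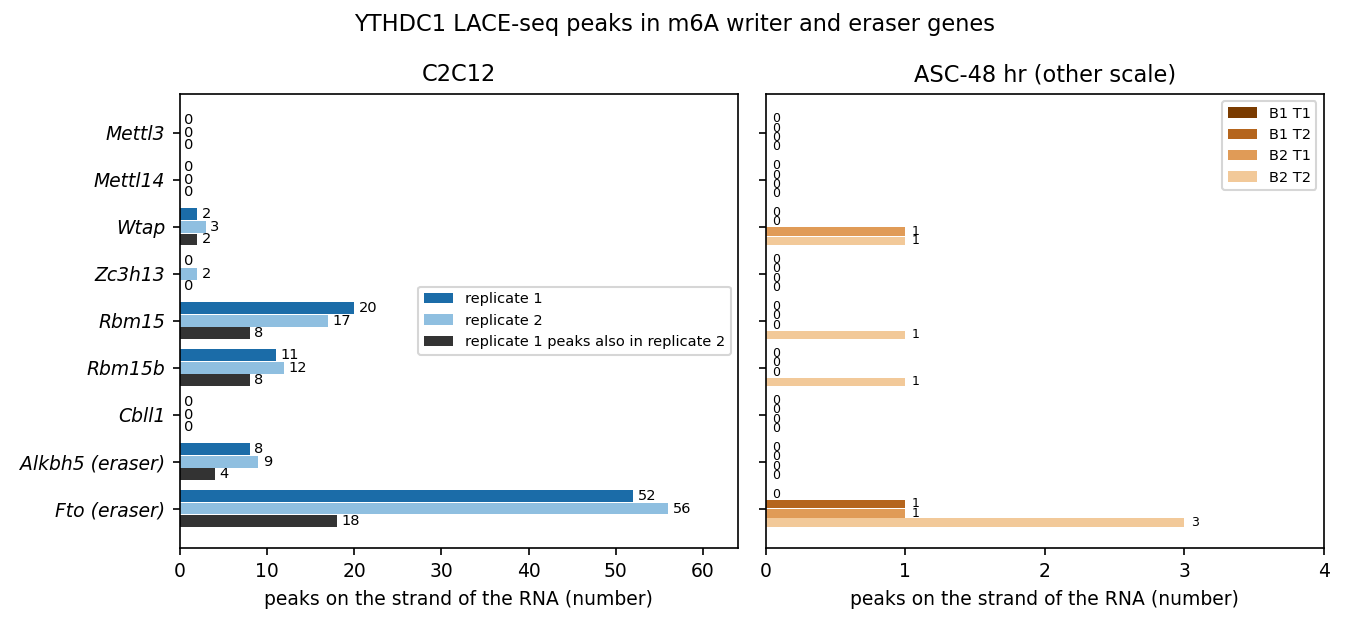
Peaks on the strand of the RNA, without G-run peaks, in each gene (rows) and library; the left axis counts C2C12 peaks and the right axis, on a smaller scale, ASC-48 hr peaks. *Fto* had the most in C2C12 (52 and 56), and no gene passed 3 in any ASC-48 hr library.

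The catalytic core was nearly without signal on either strand. *Mettl3* (ENSMUSG00000022160, chr14:52914343-52924803, minus strand) had a single peak in all libraries, of 6 reads per bin, in ASC-48 hr B1 T2, on the strand of the gene in the 5′UTR. *Mettl14* (ENSMUSG00000028114, chr3:123067563-123088908, minus strand) had a single peak of 8 reads per bin in C2C12 replicate 1, on the strand of the gene, where the interval overlaps *Sec24d* on the other strand. That peak is opposite to *Sec24d*, the orientation called the strand of the RNA for that gene. Its 20-nt sequence occurs 2 times in the genome, so those reads cannot be assigned to this position alone. *Cbll1* (ENSMUSG00000020659, chr12:32170158-32184481, minus strand), whose protein is a RING-finger component of the writer complex, had no peak of any kind.

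*Zc3h13* (ENSMUSG00000022000, chr14:75684180-75744233, plus strand), which encodes the zinc-finger scaffold that keeps the writer complex in the nucleus, held peaks on the strand of the RNA in C2C12 replicate 2 and none in replicate 1. Both lay in coding sequence, at chr14:75721481-75721500 with 7 reads per bin and at chr14:75721541-75721560 with 8. The second, which starts 60 nt after the first, held GGACT within 20 nt. Neither was found in replicate 1 or in any ASC-48 hr library, so no RNA-strand position of this gene was seen in more than 1 library.

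*Wtap* (ENSMUSG00000060475, chr17:13159662-13185412, minus strand), the adaptor that anchors the core, had 2 peaks in C2C12 replicate 1 and 3 in replicate 2, and 2 were shared. The one with more reads, at chr17:13174501-13174520 in an intron, had 11 and 10 reads per bin (10.5 ± 0.71, SD, n = 2). Its 20-nt sequence occurs 4917 times in the genome, and reads were placed at up to 10 positions, so those reads cannot be assigned to *Wtap* alone. The other, at chr17:13159961-13159980 in the 3′UTR, had 8 and 6 reads per bin (7.0 ± 1.41, SD, n = 2) and a sequence that occurs once. *Wtap* thus rests on 1 uniquely placed shared peak, close to the lowest listed value of 6.

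*Rbm15* and *Rbm15b* encode paralogous RNA-binding proteins that recruit the writer complex, and in both most of the exon length is a single long exon. *Rbm15* (ENSMUSG00000048109, chr3:107128863-107136591, minus strand) had 20 peaks in replicate 1 and 17 in replicate 2, of which 17 and 16 lay wholly within the 3459-nt first exon. Of its 8 shared peaks, 7 were in coding sequence and 1 in the 3′UTR, which the second exon holds. The strongest, at chr3:107134581-107134600, had 10 and 9 reads per bin (9.5 ± 0.71, SD, n = 2). The next, at chr3:107135021-107135060, averaged 6.5 and 10 reads over its bins, and the one at chr3:107134461-107134480 had 9 and 6. No shared peak of *Rbm15* therefore stood far above the rest, and their means ran from 6.5 to 9.5 reads per bin.

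The peaks of *Rbm15* were spread along the exon. Those of the 2 replicates fell into 26 separate stretches and covered 688 of the 3819 nt of annotated exon (18%). Only 40% of the replicate 1 peaks were found in replicate 2 at an overlap of 1 nt. When replicate peaks within 20 nt of each other were counted as shared, a choice made after seeing the data, *Rbm15* had 13 shared peaks in place of 8, so some peaks of one replicate lay close to, but not over, a peak of the other. The highest values in the gene, 12 reads per bin at chr3:107134421-107134440 and at chr3:107135941-107135960, were both listed in replicate 2 alone.

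*Rbm15b* carried fewer but higher peaks. Its main interval (ENSMUSG00000045365, chr9:106786316-106789331, minus strand) is 1 exon of 3016 nt, and a second identifier (ENSMUSG00000074102, chr9:106783260-106784620) held none of the shared peaks. Replicate 1 had 11 peaks and replicate 2 had 12, and the 8 shared ones were all in coding sequence, 72.7% of the replicate 1 peaks. The strongest, at chr9:106787021-106787040, had 16 and 12 reads per bin (14.0 ± 2.83, SD, n = 2). The second, at chr9:106788021-106788040, had 13 and 12 (12.5 ± 0.71, SD, n = 2). The peaks at chr9:106787381-106787400 and chr9:106788741-106788760 had the same mean, 10.5, from unequal replicates: 12 and 9 for the former and 7 and 14 for the latter. The last pair shows the largest gap between replicates among the 40 shared peaks, 7 reads per bin. *Rbm15b* lies inside an intron of *Manf*, a secreted neurotrophic factor gene on the same strand, and without peaks that also lie in another gene of their strand all 8 are dropped and the 9 genes keep 32 shared peaks in 4 genes.

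Per kb of annotated exon *Rbm15* had 2.09 shared peaks and *Rbm15b* 1.83, where the length of *Rbm15b* includes its second identifier of 1361 nt. Within its 3016-nt exon alone *Rbm15b* had 26.5 per 10 kb, against 20.2 in the 3459-nt first exon of *Rbm15*. Among the 3589 genes with a shared exon peak (16.1% of protein-coding genes), the median was 0.501 per kb. On the full annotated lengths, 464 and 540 genes had more than *Rbm15* and *Rbm15b*. By number, 525 genes had more than 8 shared peaks.

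**Figure D2:**
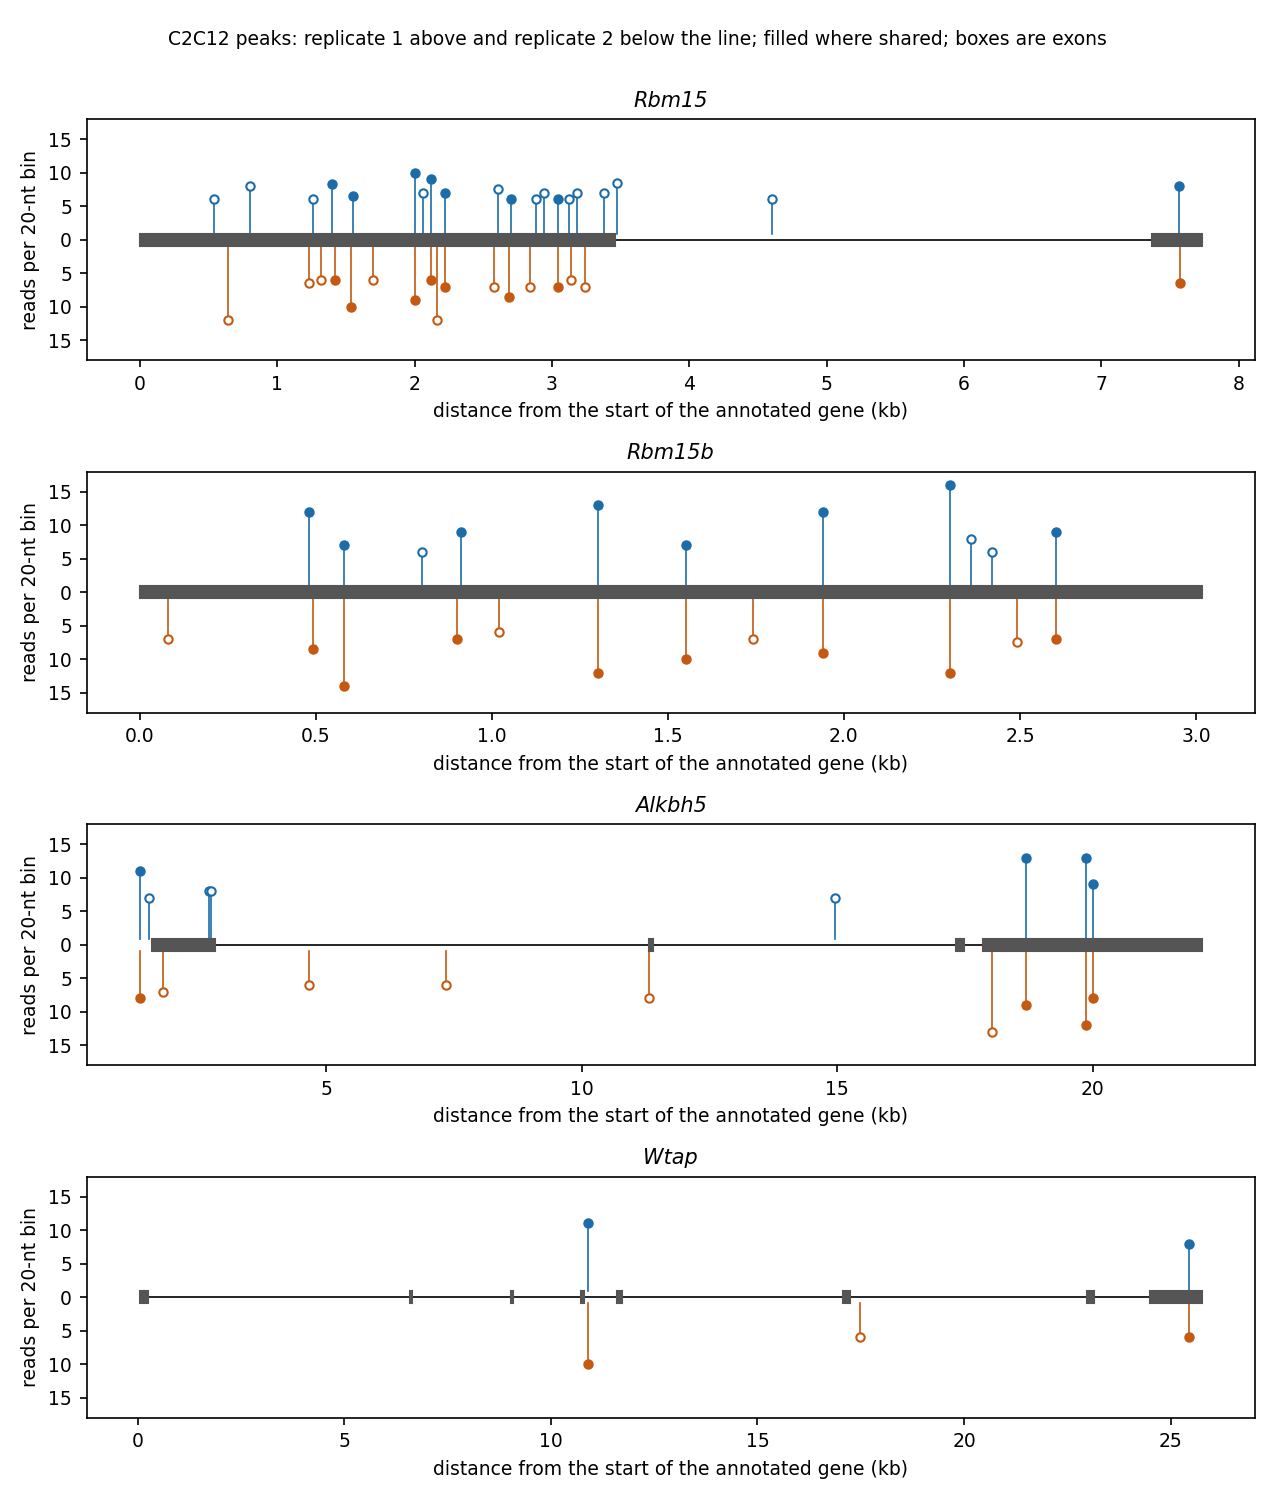
C2C12 peaks on the strand of the RNA in *Rbm15*, *Rbm15b*, *Alkbh5* and *Wtap*, by distance from the start of the annotated gene (kb) and reads per 20-nt bin; replicate 1 is above the line, replicate 2 below, filled circles are shared peaks and boxes the exons of 1 transcript per gene. *Rbm15b* holds 8 shared positions along its single exon, and 3 of the 4 shared peaks of *Alkbh5* fall in its last exon.

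*Alkbh5* (ENSMUSG00000042650, chr11:60349883-60372014, plus strand), the eraser found mainly in nuclear speckles, had 8 peaks in replicate 1, 9 in replicate 2 and 4 shared. Of these, 3 were in the 3′UTR, inside the last exon of 4275 nt. The strongest, at chr11:60369741-60369760, had 13 and 12 reads per bin (12.5 ± 0.71, SD, n = 2). The peak at chr11:60368561-60368580 had 13 and 9 (11 ± 2.83, SD, n = 2). Another, at chr11:60369881-60369900, had 9 and 8. No replicate 1 peak of that exon was missing from replicate 2.

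Replicate 2 added a peak of 13 reads per bin in that exon, at chr11:60367901-60367920, where the coding sequence ends. Replicate 1 listed no peak there. The fourth shared peak, at chr11:60351221-60351260 with 11 and 8 reads per bin, lies before the start of the coding transcript and in an intron of a noncoding transcript alone. At 0.501 shared exon peaks per kb, *Alkbh5* stood at the median of the genes with a shared exon peak, and 1056 genes had more shared peaks by number.

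*Fto* (ENSMUSG00000055932, chr8:93837431-94192338, plus strand), the first RNA demethylase described for m6A, had most of its peaks in introns. There were 52 peaks in replicate 1, 56 in replicate 2 and 18 shared, and 16 of the 18 were in introns. The gene is 354908 nt long. By number, 140 protein-coding genes had more shared peaks, while per 10 kb of intron *Fto* had 0.468 and 835 genes had more. The median among the 2226 genes with a shared intron peak (10.0% of protein-coding genes) was 0.308 per 10 kb.

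The shared intron peaks of *Fto* sat in 3 introns of its 9-exon transcript. The first intron, 88186 nt long, held 22 and 25 peaks in the replicates and 7 shared. All of them lay within 39780 nt of the gene start in both replicates, and the remaining 48485 nt of that intron held none. The eighth intron, 143385 nt long, held 21 and 22 peaks and 8 shared. The sixth held 1 peak in each replicate, and it was shared. Together the first and eighth introns make up 65.2% of the transcript's length and held 15 of the 18 shared peaks.

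The strongest peak of *Fto*, and the highest mean of all 40, was in the first intron at chr8:93859361-93859380, with 14 and 16 reads per bin (15 ± 1.41, SD, n = 2). In the eighth intron the peak at chr8:94051341-94051360 had 11 and 10 (10.5 ± 0.71, SD, n = 2). The peak at chr8:94093121-94093140 had 7 and 12 (9.5 ± 3.54, SD, n = 2), an SD above the median of the 40. The densest stretch of the gene, chr8:94088021-94088640 in the same intron, held 6 peaks in replicate 1 and 7 in replicate 2. Its 3 shared peaks have 20-nt sequences that occur 5 times in the genome, and without sequences that occur more than once the gene keeps 14 shared peaks.

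In exons *Fto* had 1 shared peak in coding sequence, at chr8:93998261-93998280 with 6 and 7 reads per bin, and 1 in the 3′UTR, at chr8:94190901-94190920 with 9 and 7. Exon 3, of 619 nt and coding, held 2 peaks in replicate 1 and 3 in replicate 2 with none overlapping. A peak of 14 reads per bin at chr8:94049421-94049440, in an exon of a noncoding transcript, was listed in replicate 1 and not in replicate 2, so a high value in 1 replicate did not ensure a peak in the other. Counting replicate peaks within 20 nt of each other as shared, chosen after seeing the data, gave *Fto* 24 shared peaks.

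**Figure D3:**
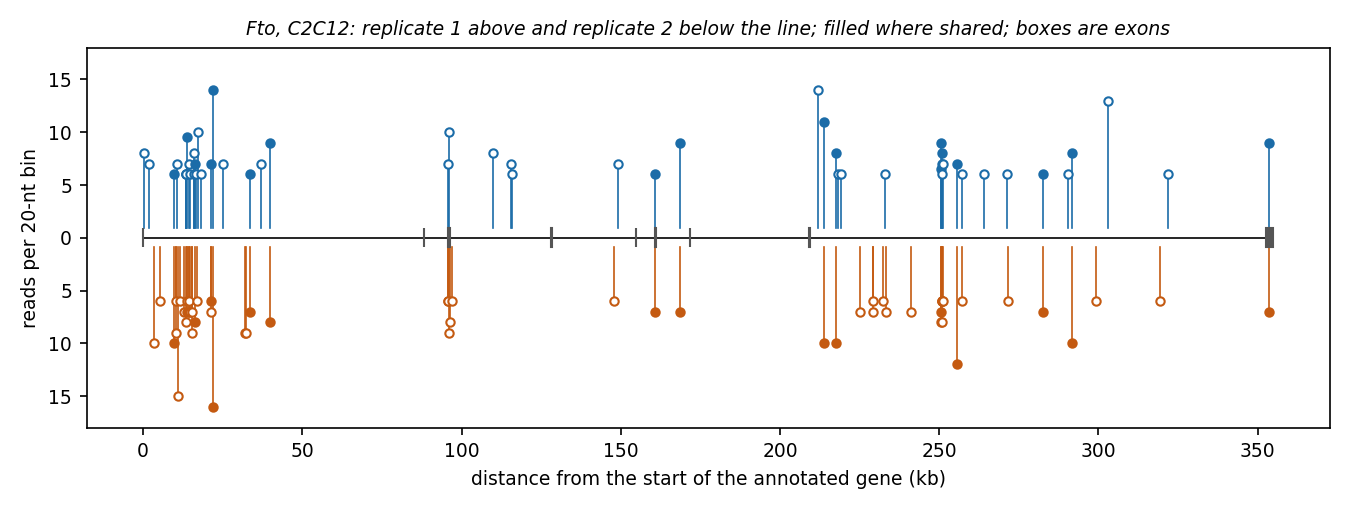
C2C12 peaks on the strand of the RNA in *Fto* by distance from the gene start (kb) and reads per 20-nt bin, with replicate 1 above and replicate 2 below the line, shared peaks filled and exons as boxes. Most peaks lie in the first part of the first intron and in the eighth intron, with a stretch of 48485 nt at the end of the first intron without any.

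Over the 9 genes, 22 of 40 shared peaks touched an exon (55%, exact 95% interval 38.5 to 70.7), against 67.9% of shared peaks in all protein-coding genes. The share depended on *Fto*: 2 of its 18 shared peaks touched an exon (11.1%, 1.38 to 34.7), while without it 20 of 22 did (90.9%, 70.8 to 98.9). The exon share of the group as a whole thus describes neither kind of gene. The intervals cover counting error only, and the peaks of 1 gene share its RNA.

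The members were like other genes in how well replicates matched. Of the 93 replicate 1 peaks, 43% were found in replicate 2 (32.8 to 53.7), against 45.2% of all such peaks in protein-coding genes. The share differed with the number of reads: 11 of 15 member peaks with 10 or more reads per bin were found again (73.3%, 44.9 to 92.2), and 29 of 78 with fewer (37.2%, 26.5 to 48.9). The same shares over all genes were 79.6% and 38.6%. Of the 40 shared peaks, 32 had the same start and end in both replicates, 35 had a sequence that occurs once in the genome, and the median SD between replicates was 1.41 reads per bin. Replicate 1 had more reads in 24 of them, replicate 2 in 15, and 1 was equal.

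**Figure D4:**
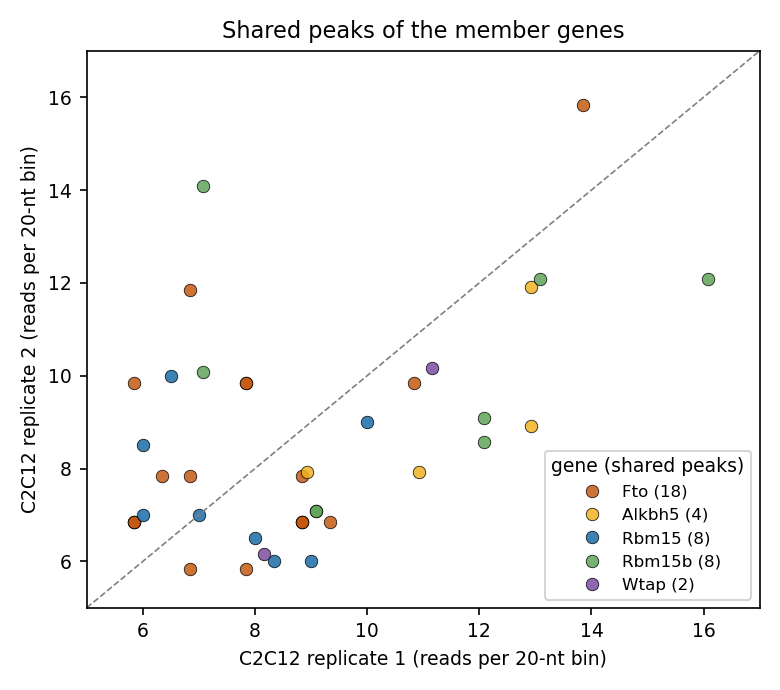
Reads per 20-nt bin of the 40 shared peaks in C2C12 replicate 1 (horizontal) and replicate 2 (vertical), coloured by gene, with a dashed line of equality; points are shifted slightly by gene, and equal values of 1 gene lie on each other. Points fall on both sides of the line, with 24 higher in replicate 1 and 15 in replicate 2.

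A DRACH match lay within 20 nt of 29 of the 40 shared peaks (72.5%, exact 95% interval 56.1 to 85.4). The share over the shared peaks of all protein-coding genes was 64.4%, and 60-nt windows tiled over the members' own exons and introns, without regard to peaks, held one in 69.1% and 65.6%. A shared peak of 1 bin has a window of the same 60 nt, but only 33 of the 40 are of 1 bin, and the others have longer windows. With that difference in length, the members' share was near what their sequence holds anywhere. GGACT on the strand of the RNA was within 20 nt of 2 shared peaks (5%, 0.611 to 16.9), 1 in *Rbm15b* and 1 in an intron of *Fto*, against 6.01% of all shared peaks. *Rbm15* had a DRACH match at 7 of 8 shared peaks, *Rbm15b* at 7 of 8, *Fto* at 11 of 18, *Alkbh5* at 2 of 4 and *Wtap* at 2 of 2. A match describes the letters in the window and not a methylated site.

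In ASC-48 hr no RNA-strand peak of the 9 genes was found in all 4 libraries, where 1.17% of protein-coding genes had one. The B1 libraries held 0 (T1) and 1 (T2) such peaks in these genes, and those of B2 held 2 (T1) and 6 (T2). Per 1000 peaks on the strand of the RNA in protein-coding genes that is 0, 0.386, 0.819 and 0.935, next to 2.22 and 2.14 in the C2C12 replicates. All 4 ASC-48 hr values were below both C2C12 values, but no test was made: ASC-48 hr has 2 biological replicates, and C2C12 may have 1. The ASC-48 hr lists were shorter, with 57953 to 111729 reads in peaks against 523067 and 607366, and the part of this in the difference was not tested.

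In all, 4 of the 9 genes held such a peak in some ASC-48 hr library, *Wtap*, *Rbm15*, *Rbm15b* and *Fto*, against 23.9% of protein-coding genes. By library, none of the 9 genes had one in B1 T1 (6.56% of protein-coding genes), 1 did in B1 T2 (8.66%), 2 in B2 T1 (7.97%) and all 4 in B2 T2 (17.2%), and without B2 only *Fto* remains. The lowest listed value was 4 reads per bin in B2 T2 and 5 in each other ASC-48 hr library. A peak of 4, such as that of *Rbm15* below, could thus be listed in B2 T2 alone. *Fto* had peaks of 6 reads per bin in B1 T2, of 5 in B2 T1, and of 4, 4 and 5 in B2 T2. That of B1 T2 lay in an intron at chr8:94143321-94143340. Those of 4 lay at chr8:93837481-93837500 in coding sequence and at chr8:94090621-94090640 in an intron. The peak at chr8:94174361-94174380 in its eighth intron was the same in B2 T1 and B2 T2, with 5 reads per bin in each, and had no counterpart in C2C12. *Alkbh5* had none in ASC-48 hr.

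The highest ASC-48 hr value on the strand of the RNA belonged to *Wtap*. The peak at chr17:13184981-13185000, in the 5′UTR, had 7 reads per bin in B2 T1 and 10 in B2 T2. It was absent from both B1 libraries and from both C2C12 replicates, so it rests on technical replicates of 1 biological sample. The shared C2C12 peaks of *Wtap* lay in an intron and in the 3′UTR, and none of them was found in ASC-48 hr.

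*Rbm15b* had the only position seen in both cell types. The coding peak at chr9:106788401-106788440 had 9 and 7 reads per bin in C2C12, and its first bin was a peak of 5 reads per bin in ASC-48 hr B2 T2. Its sequence with GGACT is given above. *Rbm15* had 1 peak of 4 reads per bin in B2 T2, at chr3:107134041-107134060 in coding sequence, which no C2C12 shared peak overlapped.

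Peaks on the strand of the gene and G-run peaks are stated apart. A single position in *Zc3h13*, at chr14:75735901-75735920 in an intron, was a peak in all 6 libraries, with 9 reads per bin in ASC-48 hr B1 T1, 8 in each of the other 3 ASC-48 hr libraries, and 9 and 8 in C2C12. It had the orientation of the gene, not of its RNA's reads, and stood at a G run. On either strand and with G runs kept, 2 of the 9 genes, *Zc3h13* and *Rbm15b*, had a peak in all 4 ASC-48 hr libraries, against 4.07% of protein-coding genes. Counting G-run peaks alone, 2.09% had one in all 4. On the strand opposite to the reads the window is the following, with no DRACH match.

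*Zc3h13*, intron, chr14:75735896-75735925, minus strand: cccccccccccccccccgcacttctgagct

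A position in *Rbm15b*, at chr9:106789301-106789320 and 21 nt from the gene start, was a peak on the strand of the gene without a G run. It had 6 reads per bin in ASC-48 hr B1 T1, 5 in each of the other 3 ASC-48 hr libraries, 6 in C2C12 replicate 2 and no peak in replicate 1. Of protein-coding genes, 1.05% had an ASC-48 hr shared peak of this kind, against 1.17% with an RNA-strand one. These shares were close, so the orientation seen in C2C12 was not shown to hold for ASC-48 hr shared peaks. The only ASC-48 hr peaks of the 9 genes found in every ASC-48 hr library, those of *Zc3h13* and *Rbm15b*, were both on the strand opposite to that of most C2C12 peaks in genes. *Rbm15* had a G-run peak of 4 reads per bin in an intron in B2 T2. *Fto* had peaks on the strand of the gene without a G run in 4 libraries: 1 in B1 T1, 3 in B2 T2, 1 in C2C12 replicate 1 and 3 in C2C12 replicate 2, at different positions. Those of C2C12 have 20-nt sequences that occur 200 to 70973 times in the genome, so their reads cannot be assigned to *Fto* alone. Those of ASC-48 hr have sequences that occur once.

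Among 10 other genes of RNA methylation and demethylation, 2 had a shared C2C12 peak. They were *Virma* (listed as 1110037F02Rik), the scaffold of the writer complex, with 2 exon peaks shared of 4 and 8 in the replicates, and *Alkbh1*, a dioxygenase of the ALKBH family, with 1 intron peak shared of 4 and 1. *Mat2a*, whose enzyme makes the methyl donor, had 3 and 4 peaks and none shared. *Mettl16*, *Mettl5*, *Trmt112*, *Zcchc4*, *Mettl4*, *Pcif1* and *Alkbh3* had no shared peak either. In some ASC-48 hr library *Virma*, *Mettl16* and *Alkbh1* had a peak, 3 of 10, against 23.9% of protein-coding genes. Shared C2C12 peaks were held by 2 of 10 genes in this list and by 5 of 9 of the writers and erasers named above. Over all protein-coding genes that share was 21.4%.

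The labelled cell types were set beside marker genes. Of 6 myogenic markers, *Des*, *Cdh15* and *Myf5* had shared C2C12 peaks (9, 3 and 2). *Myod1* had 5 and 3 peaks in the C2C12 replicates and none shared, *Pax7* had 0 and 1, and *Myog* had none in any library. In the ASC-48 hr libraries *Pax7*, which marks satellite cells, had 1 peak in each of the B1 pair and 2 and 10 in the B2 pair, while *Des*, *Myod1* and *Myf5* each had a peak in some library and *Cdh15* had none. Of 5 markers of other cell types, *Pecam1* and *Pdgfra* had 1 shared C2C12 peak each, *Cdh5*, *Ptprc* and *Adipoq* had none, and no ASC-48 hr library held an RNA-strand peak in any of the 5. Shared C2C12 peaks were thus seen in both kinds of marker. Of all protein-coding genes, 21.4% had a shared C2C12 peak and 23.9% had an RNA-strand peak in some ASC-48 hr library.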

How the data were processed

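YTHDC1 LACE-seq peak lists of 6 libraries were analysed. The authors trimmed reads with Cutadapt 1.15, set aside those matching pre-rRNA and aligned the remainder to mm9 by Bowtie 1.2.3, keeping up to 10 positions per read. Piranha then called peaks library by library in 20-nt bins with p below 0.001. These settings are named for ASCs, and those for C2C12 are not given in the sources used here. The deposited signal is the number of reads per bin without normalization, and is a mean where a peak spans several bins. Piranha's p-value, also deposited, is unadjusted and applies within a library. Lists of peaks do not give library totals, so depth is unknown. Reads in peaks are PCR products, and intervals (Clopper-Pearson, 95%) cover counting error only.

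Peaks were joined to NCBIM37 (mm9) and GENCODE genes with pandas 2.3.3, numpy 2.4.6, scipy 1.17.1, pysam 0.24.0 and samtools 1.23.1 under Python 3.11.15, and plotted with matplotlib 3.10.9. A member's peak lay wholly within its interval, and an exon peak touched any annotated exon. Shared ASC-48 hr peaks were in T1 and T2 of both B1 and B2. Overlap, gene part and motif steps were tested on simulated data, and 10 of 10 checks gave the known answer.

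The members and gene lists were chosen with earlier results of these data known. Named are all 9 members, every shared peak of a member with up to 3 and the 3 with most reads of the others, and every ASC-48 hr peak on the strand of the RNA; other peaks named here were chosen after their values were seen. No test across genes was made. Alternatives were other overlaps, p-values, strands, G runs, copies and motifs, and single replicates.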

Additional observations from a re-analysis of the deposited data

Results flagged for a closer look

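In the 4 ASC-48 hr libraries the peak of *Rbm15b* on the strand of the gene had 6 reads per bin in B1 T1 and 5 in each of the others, and the G-run peak of *Zc3h13* had 9 in B1 T1 and 8 in each of the others. Both were picked out because 1 library stood apart while the other three were equal. The gap was 1 read in each case, and chance picks out about 1 in 20 groups of continuous values. For small whole numbers with ties, as here, that rate was not measured.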

How the results depend on the processing

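Of 89 alternative values, 18 lay outside and 71 within the tolerance set for each, 1.5 times for a count and the exact 95% interval for a share. That interval is narrow for a share of all protein-coding genes. Some of the 71 could not differ from the main value. Peaks are made of 20-nt bins, so an overlap of at least 10 nt is the same demand as 1 nt. The C2C12 lists held no value under 6 reads per bin, so a minimum of 6 removed nothing there. The 40 shared C2C12 peaks of the 9 genes became 13 at a p-value of at most 0.0001 and 6 at 0.00001, and a single replicate gave 93 to 99. At 0.00001 *Rbm15* no longer had a shared peak. The share of protein-coding genes with a shared peak, 21.4%, was 11.2% and 6% at those p-values, 24.8% with peaks on either strand, 22.2% with replicate peaks within 20 nt of each other (chosen after seeing the data) and 32.8% to 36.7% in single replicates. The 0 shared ASC-48 hr peaks became 1 with peaks on either strand, and 0 to 2 when 1 biological replicate was left out. The 4 genes with a peak in some ASC-48 hr library became 2 and 1 at those p-values, 2 with at least 6 reads per bin, and 1 to 4 when 1 biological replicate was left out. The share of shared peaks with a DRACH match was 90% with 50 nt on either side and 5% for GGACT alone. No paired analysis was possible because every value here is a count or a share that comes from no test. Depth could not be read from the lists, so a gene without a peak may be bound below the threshold.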
